A study of Canis lupus familiaris with 29 samples.

Results

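A set of 7 genes, PODN, LBH, SAMD11, RIPPLY1, PPP1R1B, SEPP1 and VWA2, was followed through the differentiation of MDCKII cells, a dog kidney epithelial line that forms hollow cysts in gel and flat polarised monolayers on porous inserts. The genes were chosen by the size of their increase over day 0 in wild-type 3D or 2D cultures, and were grouped as genes whose role in that process is unclear. They are 7 of 24223 genes in each file and 7 of 11774 genes tested, since all 7 passed the filter of at least 1 FPKM in at least 2 libraries. FPKM is the number of sequenced fragments normalised for transcript length and library size. Each symbol had 1 row. By their largest fitted increase over day 0 in a wild-type group the genes ranked 6 (PODN), 15 (LBH), 17 (SEPP1), 18 (SAMD11), 21 (PPP1R1B), 23 (RIPPLY1) and 45 (VWA2) among the genes tested, and the choice set no numeric limit. The wild-type increases, and the contrast of gel with insert, therefore describe how the genes were chosen and carry no test.

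The study followed epithelial morphogenesis by RNA sequencing in 29 libraries and 13 groups, all of MDCKII cells. Wild-type cells were collected as the cells used for seeding (day 0, n = 4), as 3D cultures on top of matrigel, a basement membrane gel, at 24 h and days 3, 5 and 8 (n = 2 each) and day 14 (n = 1), and as 2D cultures on transwell inserts at days 4 and 11 (n = 3 each). Knockdown (KD) cells, with either DENND5A or AVL9 reduced, both DENN domain genes linked to RAB GTPases, were collected at day 0 and 2D day 4 (n = 2 each), and DENND5A-KD cells also at 2D day 7 (n = 2). Libraries of the knockdowns are numbered 1 and 2 (DENND5A) or 1 and 4 (AVL9), called lines here, although the labels do not say whether a number is a clone, a hairpin or a guide. The samples include no knockdown control and no knockdown cells on gel. Separate cultures are not stated for replicates, and p-values thus reflect library-to-library spread that may be technical.

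The 7 proteins act in different places. PODN (podocan, a small leucine-rich proteoglycan) and VWA2 (AMACO, a von Willebrand factor A domain protein of basement membranes linked to the Fraser complex) are secreted into the matrix. SEPP1 encodes selenoprotein P, a secreted carrier of selenium that the liver makes and that kidney tubules take up through megalin. PPP1R1B (DARPP-32) is a cytosolic protein that inhibits protein phosphatase 1 once protein kinase A has phosphorylated it, best known from striatal neurons. LBH is a small nuclear cofactor and a Wnt target in mammary epithelium. SAMD11 is a nuclear SAM domain protein of photoreceptors that joins a Polycomb repressive complex, and RIPPLY1 recruits TLE corepressors to T-box transcription factors during somite formation. Epithelial polarisation places such secreted proteins and their receptors on apical or basal membranes, and lasting changes of transcription accompany it as cells stop dividing.

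Depth is known only in relative terms, because the files hold no counts. Wild-type day 14 and replicate 1 of wild-type 2D day 4, 3D day 8, 3D day 3 and day 0, 5 libraries in all, stood apart from the rest. Their depth relative to day 0 replicate 2 was 0.444 to 0.742, against 0.83 to 1.09 in the other wild-type libraries and 0.532 to 1.66 in the 10 knockdown libraries. TIMM13, which every cell uses, was listed at 0 in all 5 and read 30.9 to 397 FPKM in the other 24, so a listed 0 need not mean absence. RPS27L differed the other way, at 11.6 to 22.3 FPKM in the 5 and at most 1.37 in the other 24. The reason for these differences was not tested. Of the markers sought, 7 epithelial genes summed to 828 to 1688 FPKM in every library, while 7 of 7 fibroblast, 6 of 6 endothelial and 5 of 5 leukocyte markers stayed under 1 FPKM in all 29. Of 4 smooth muscle markers 3 did too, and TAGLN, an actin-binding protein, took the sum from 0 to 1.48 FPKM in wild type to 0.305 to 14.5 in the knockdowns. DENND5A was lower in DENND5A-KD than in wild type at day 0 (log2 difference -1.16 ± 0.12 SE, adjusted p = 5.62e-06) and 2D day 4 (-1.28 ± 0.13, adjusted p = 4.63e-06). AVL9 was lower in AVL9-KD at day 0 (-1.70 ± 0.14, adjusted p = 1.33e-07) and 2D day 4 (-1.91 ± 0.15, adjusted p = 8.19e-08).

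In wild-type cells the 7 genes fell into 3 patterns once growth on gel was set beside growth on inserts. LBH, SAMD11, RIPPLY1 and PPP1R1B read higher in all 6 libraries of 3D days 3, 5 and 8 than in all 6 libraries of 2D days 4 and 11. PODN and VWA2 read higher in all 6 of these 2D libraries than in the 6 of 3D. SEPP1 overlapped between the cultures. In such bulk samples fewer cells expressing a gene and less RNA per cell cannot be told apart. No member was limited to gel, because the fitted difference from day 0 was at least 2-fold for 7 of 7 at 2D day 4 and for 7 of 7 at 2D day 11, where 9.28% and 8.20% of all genes tested reached that size. Over all genes tested, 8.15% had every one of these 3D libraries above every 2D library and 18.3% the opposite. Sampling times on gel and inserts differ, so the contrast sets stages as well as surfaces against each other.

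**Figure D1:**
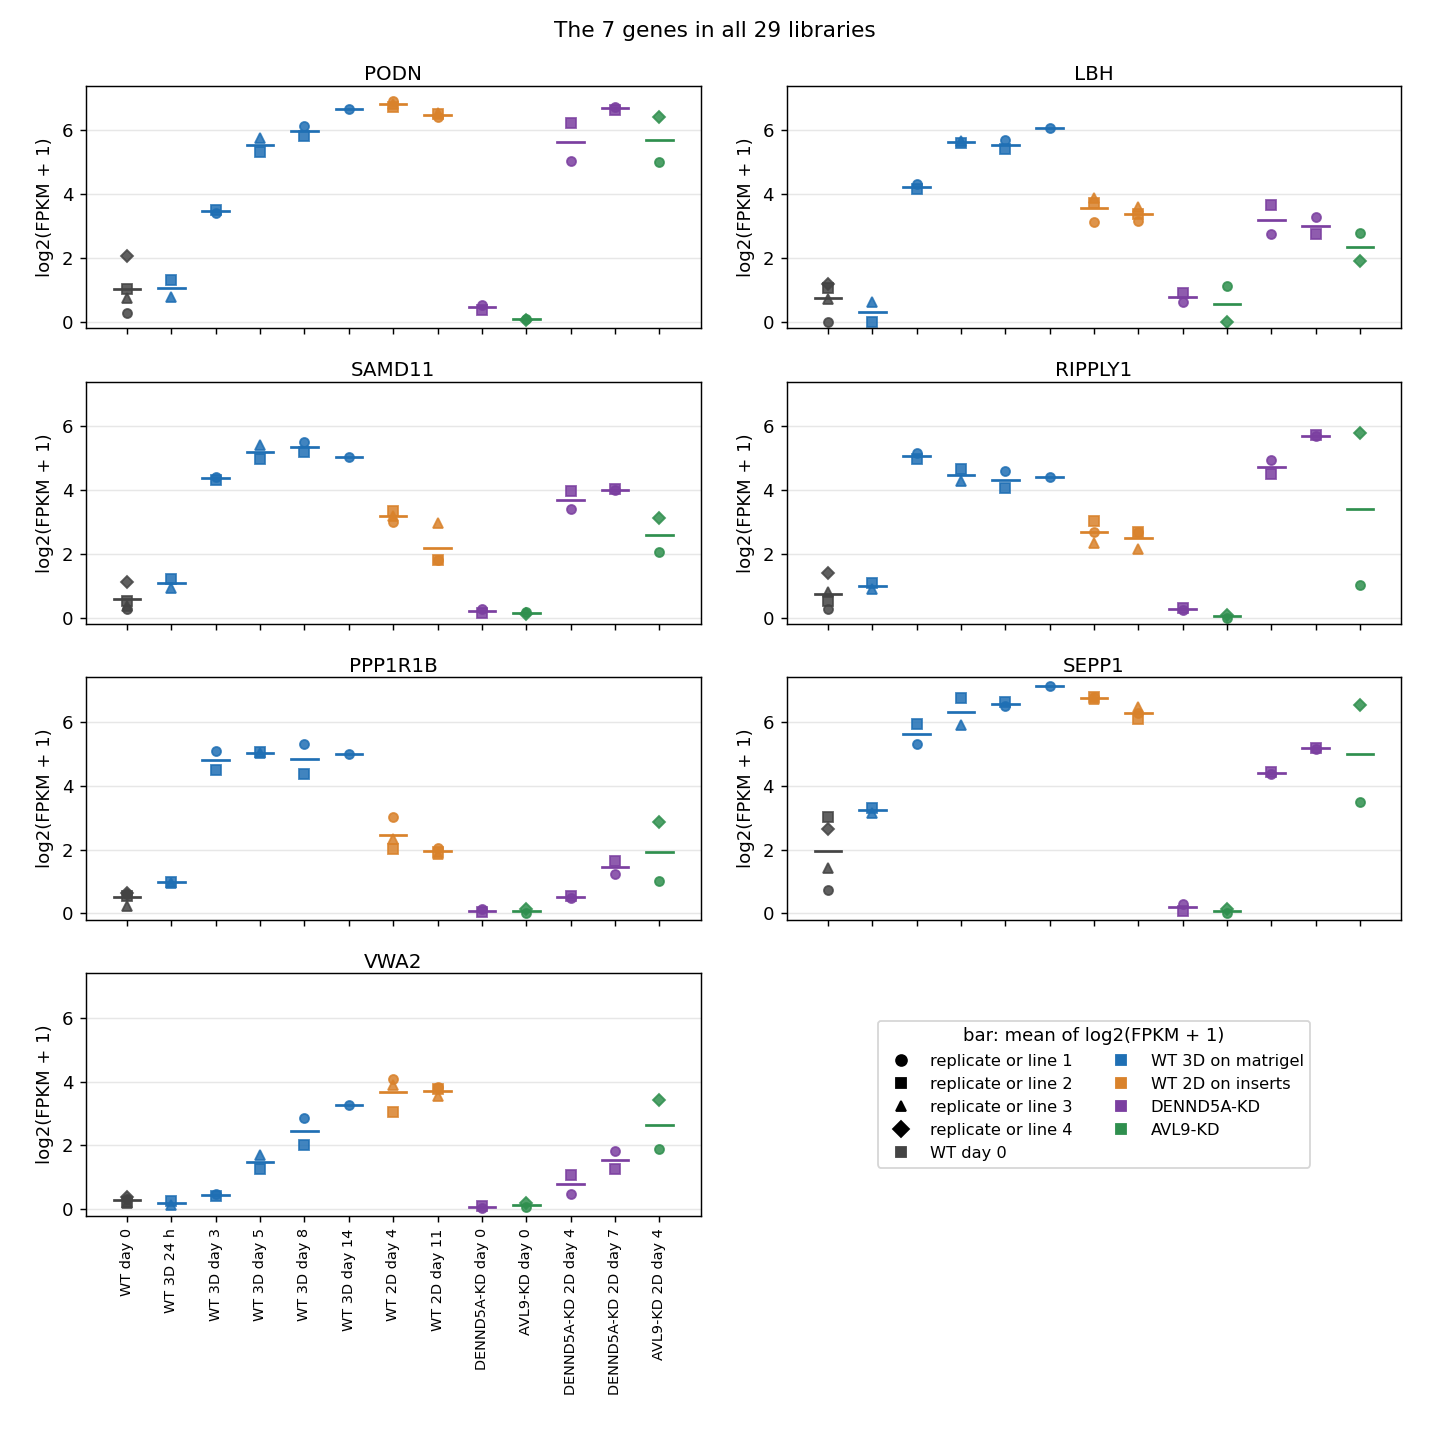
FPKM of the 7 genes as log2(FPKM + 1) on the y axis in each of the 29 libraries, by group along the x axis; points are libraries, with their shape giving the replicate or line number, and bars are group means on that scale. LBH, SAMD11, RIPPLY1 and PPP1R1B sit higher on gel from day 3 than on inserts, PODN and VWA2 reach their highest wild-type levels on inserts, and the AVL9-KD day 4 lines lie far apart for RIPPLY1 and SEPP1.

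Of the matrix genes, PODN read 0.210, 1.06, 0.670 and 3.14 FPKM at day 0. On gel it read 1.51 and 0.718 at 24 h, 9.67 and 10.4 at day 3, 39.2 and 53.4 at day 5, 68.8 and 55.7 at day 8 and 100.2 in the single day 14 library. Insert libraries read 121, 105 and 113 at day 4, then 84.3, 90.7 and 91.7 at day 11. The gel values thus climbed with time towards the insert values, which were already at their highest at day 4, and only the day 14 library lay within the insert range. The fitted log2 difference from day 0, on log2(FPKM + 1), which understates changes of low genes, was 4.95 at 3D day 8 and 5.80 ± 0.34 (SE) at 2D day 4. PODN at 2D day 4, 113 ± 8.14 FPKM (SD, n = 3), and SEPP1, 108 ± 3.59, were the highest group means of the 7 genes among replicated wild-type groups, and FPKM allows this comparison between genes because it is per length.

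VWA2 shared the direction of PODN and came later. It read 0.252, 0.177, 0.138 and 0.308 FPKM at day 0, 0.188 and 0.0824 at 24 h on gel and 0.377 and 0.316 at day 3. The gel libraries then read 1.40 and 2.22 at day 5, 6.22 and 3.05 at day 8 and 8.67 at day 14, while the insert libraries read 15.7, 7.21 and 13.8 at day 4 and 13.1, 12.6 and 10.8 at day 11. At day 3 on gel VWA2 was the only member under a 2-fold fitted difference from day 0 (log2 0.15), and 6 of 7 had reached it, against 7.68% of genes tested. At days 5 and 8 it had been reached by 7 of 7, against 9.19% and 9.28%. Mean FPKM in 2D was 5.39 times that in 3D for VWA2 and 2.55 times for PODN.

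SEPP1 was the member that differed least between gel and insert. Day 0 libraries read 0.680, 7.05, 1.70 and 5.20 FPKM, a wide spread in which replicate 1, a library that stood apart, was lowest. On gel SEPP1 read 8.96 and 7.78 at 24 h, 38.3 and 60.5 at day 3, 106 and 58.9 at day 5, 88.7 and 97.9 at day 8 and 139 at day 14. On inserts it read 109.7, 109.5 and 103 at day 4 and 76.6, 66.6 and 88.5 at day 11. At 24 h on gel it was the 1 member of 7 with a fitted difference of at least 2-fold (log2 1.27 ± 0.57 SE; 0.722% of genes tested), and without the libraries that stood apart no member reached it. Both 24 h libraries lay above all 4 day 0 libraries, the nearest of which read 7.05.

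PPP1R1B had the widest gap between gel and insert, with a mean FPKM 7.77 times as high on gel. Its day 0 values were 0.517, 0.451, 0.186 and 0.569 FPKM and its 24 h values 0.991 and 0.950. From day 3 the gel values formed a plateau, at 33.3 and 21.6, then 32.2 and 31.4 at day 5, 38.8 and 19.5 at day 8 and 30.9 at day 14. Inserts gave 7.16, 3.02 and 4.01 at day 4 and 3.15, 2.78 and 2.65 at day 11, so the highest insert library lay below the lowest gel library after 24 h.

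The 3 nuclear genes were also higher on gel, with different courses. LBH was listed at 0 in day 0 replicate 1 and in 1 of 2 libraries at 24 h, and read 1.09, 0.630 and 1.28 FPKM in the other day 0 libraries. It reached 18.8 and 17.1 at 3D day 3, 48.2 and 49.9 at day 5, 50.8 and 41.7 at day 8 and 66.2 at day 14, against 7.78, 12.1 and 13.7 at 2D day 4 and 7.97, 9.38 and 11.2 at 2D day 11. As a ratio, the jump between 24 h, where the other library read 0.534, and day 3 was the steepest step in its course, from values near 0. In FPKM the step from day 3 to day 5 was larger.

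SAMD11 read 0.200, 0.434, 0.280 and 1.19 FPKM at day 0 and 1.33 and 0.918 at 24 h on gel. It then read 20.2 and 18.9 at day 3, 30.1 and 41.5 at day 5, 44.7 and 35.4 at day 8 and 32.0 at day 14. Inserts held 7.01, 9.22 and 8.02 at day 4 and 2.46, 2.48 and 6.84 at day 11, so the 3 later insert libraries all read below the 3 earlier ones. Mean FPKM was 5.30 times as high on gel as on inserts for SAMD11 and 3.65 times for LBH.

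RIPPLY1 was the only member whose replicated gel libraries were highest at day 3. It read 0.209, 0.440, 0.733 and 1.65 FPKM at day 0, 1.13 and 0.850 at 24 h, and 35.0 and 30.4 at day 3. Later gel libraries all read lower, at 24.2 and 18.7 on day 5, 23.2 and 15.7 on day 8 and 20.3 on day 14. Inserts gave 5.45, 7.22 and 4.03 at day 4 and 5.39, 5.43 and 3.47 at day 11. The gel mean was 4.75 times the insert mean.

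**Figure D2:**
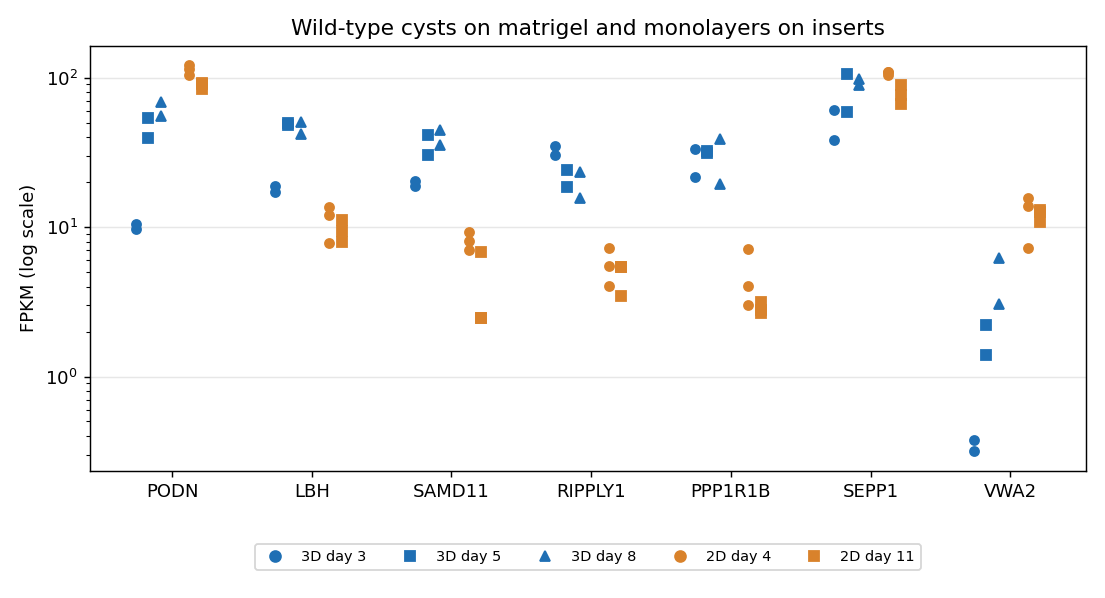
Wild-type FPKM of the 7 genes on matrigel (3D days 3, 5 and 8) and on inserts (2D days 4 and 11). Genes lie along the x axis, the y axis is log-scaled, marker shape gives the day and each point is 1 library. The gel points of LBH, SAMD11, RIPPLY1 and PPP1R1B from day 3 lie above all insert points, those of PODN and VWA2 to day 8 lie below them, and those of SEPP1 overlap them.

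As fitted log2 differences of 3D days 3, 5 and 8 from 2D days 4 and 11, the gel-higher genes gave 2.69 ± 0.23 (SE) for PPP1R1B, 2.28 ± 0.20 for SAMD11, 2.03 ± 0.47 for RIPPLY1 and 1.67 ± 0.23 for LBH. The insert-higher genes gave -2.24 ± 0.22 for VWA2 and -1.66 ± 0.25 for PODN, and SEPP1 gave -0.35 ± 0.38, within its error. Thus 4 of 7 members were at least 2-fold higher on gel (1.58% of genes tested) and 2 of 7 at least 2-fold lower (3.39% of genes tested). Leaving out the 5 libraries that stood apart left every member in its pattern, on 4 gel and 5 insert libraries.

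The rule that chose the genes used wild-type rises and not the knockdown libraries, although earlier results of these data were known. Knockdown cells are of the same line and grew on the same kind of insert, so a rise in them was favoured by the choice. It is no independent support for the wild-type rise. The differences were tested with limma across all genes. In AVL9-KD cells 7 of 7 members were higher at 2D day 4 than at day 0, and in DENND5A-KD cells 5 of 7 were, with PPP1R1B and VWA2 not called. Of all genes tested 53.9% were called in AVL9-KD (31.1% higher) and 42.3% in DENND5A-KD (20.1% higher). The median difference of the members was 2.52 in AVL9-KD and 3.47 in DENND5A-KD, beside 0.09 and -0.01 over all genes tested.

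PODN read 0.455 and 0.289 FPKM at day 0 in DENND5A-KD lines 1 and 2 and 32.0 and 74.9 at 2D day 4, a log2 difference of 5.19 ± 0.44 (SE, adjusted p = 1.45e-07). In AVL9-KD lines 1 and 4 it went from 0.0618 and 0.0455 to 31.02 and 83.8, by 5.63 ± 0.44 (adjusted p = 6.34e-09). It had the largest difference of the 7 genes in both knockdowns, as it did on inserts in wild type.

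SEPP1 rose in both knockdowns from day 0 values near or at 0. DENND5A-KD lines read 0.221 and 0.0600 FPKM at day 0 and 19.7 and 20.5 at day 4 (4.21 ± 0.66, adjusted p = 5.56e-05). AVL9-KD line 1 was listed at 0 and line 4 read 0.0908 at day 0, and they read 10.3 and 90.9 at day 4 (4.94 ± 0.66, adjusted p = 4.18e-06).

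VWA2 and PPP1R1B separated the knockdowns most. In AVL9-KD, VWA2 went from 0.0450 and 0.138 FPKM to 2.68 and 9.68 (2.52 ± 0.37, adjusted p = 1.39e-05), and PPP1R1B from a listed 0 and 0.103 to 1.01 and 6.26 (1.86 ± 0.40, adjusted p = 0.000688). DENND5A-KD lines read 0.0269 and 0.0643 for VWA2 at day 0 and 0.399 and 1.12 at day 4 (0.72 ± 0.37, adjusted p = 0.130), and 0.0937 and 0.0254 for PPP1R1B, then 0.383 and 0.448 (0.42 ± 0.40, adjusted p = 0.434). Both DENND5A-KD day 4 libraries lay above both day 0 libraries for each gene, which was not counted over all genes tested. The scale mattered at these low levels: with a pseudocount of 0.1 in place of 1, VWA2 (2.43, adjusted p = 0.00117) and PPP1R1B (1.72, adjusted p = 0.0227) were both called. PPP1R1B was also called when only these 2 groups were fitted (adjusted p = 0.0272). The difference between the 2 knockdowns in their rise, a comparison added after the values were seen, was not called for VWA2 (-1.80 ± 0.53, adjusted p = 0.112) or PPP1R1B (-1.44 ± 0.57, adjusted p = 0.295), nor for any other member, beside 1.43% of genes tested.

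The 3 nuclear genes rose in both knockdowns. RIPPLY1 went from 0.188 and 0.238 FPKM to 30.0 and 21.4 in DENND5A-KD (4.44 ± 0.81, adjusted p = 0.000229) and from a listed 0 and 0.0495 to 1.03 and 54.4 in AVL9-KD (3.37 ± 0.81, adjusted p = 0.0016). SAMD11 went from 0.216 and 0.107 to 9.54 and 14.8 in DENND5A-KD (3.47 ± 0.36, adjusted p = 8.69e-07) and from 0.135 and 0.0927 to 3.12 and 7.67 in AVL9-KD (2.42 ± 0.36, adjusted p = 1.20e-05). LBH had the smallest called difference of the nuclear genes, from 0.541 and 0.874 to 5.77 and 11.6 in DENND5A-KD (2.44 ± 0.40, adjusted p = 8.76e-05) and from 1.16 and a listed 0 to 5.90 and 2.74 in AVL9-KD (1.79 ± 0.40, adjusted p = 0.000884). For all 3 genes both day 4 libraries of each knockdown lay above both of its day 0 libraries. How many of all genes tested did so was not counted. With only the 2 AVL9-KD groups fitted, 4 of 7 members stayed called, and LBH (adjusted p = 0.0711), RIPPLY1 (0.203) and PPP1R1B (0.111) did not.

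**Figure D3:**
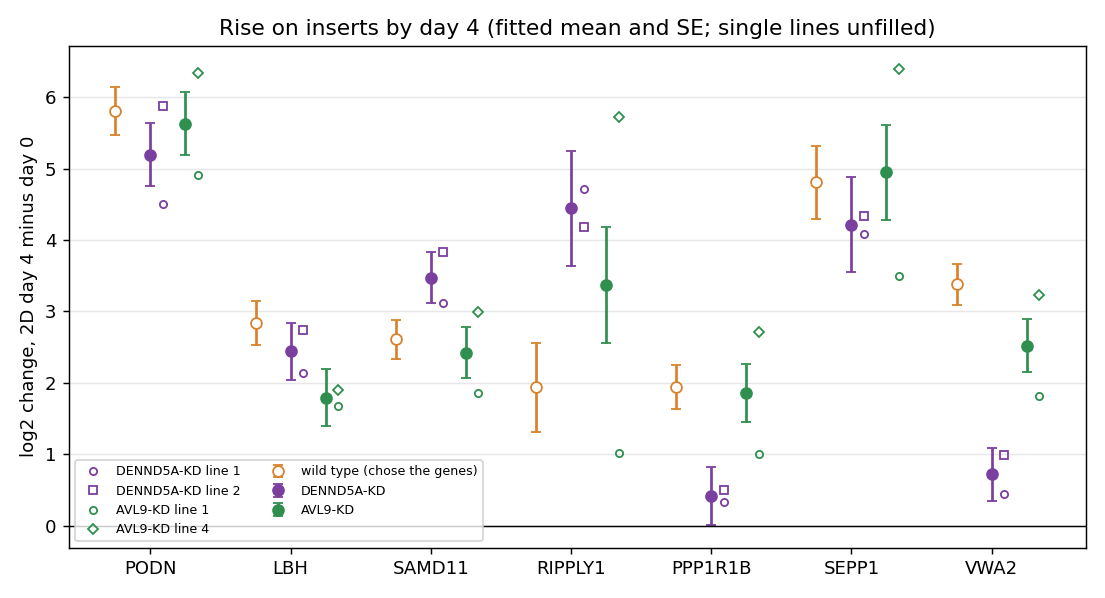
Fitted log2 difference of 2D day 4 from day 0 on log2(FPKM + 1), with error bars of 1 SE, for each of the 7 genes in wild-type, DENND5A-KD and AVL9-KD cells. The wild-type values describe the choice of the genes; PPP1R1B (0.42) and VWA2 (0.72) lie lowest in DENND5A-KD, and PODN lies above 5 in both knockdowns.

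From 2D day 4 to day 7 in DENND5A-KD no member was called by limma, 2 had an unadjusted p under 0.05, and 6 genes in all were called (0.0510% of genes tested, 0.0170% higher and 0.0340% lower). PODN read 107 and 98.8 FPKM at day 7 (1.05 ± 0.44, adjusted p = 0.651) and PPP1R1B 1.36 and 2.13 (0.94 ± 0.40, adjusted p = 0.669), the 2 genes under the unadjusted limit. RIPPLY1 read 50.7 and 51.3 at day 7 (0.98), SEPP1 34.9 and 35.4 (0.78), VWA2 2.51 and 1.41 (0.76), SAMD11 14.9 and 15.2 (0.32) and LBH 8.71 and 5.69 (-0.19). None of those 5 genes had an unadjusted p under 0.05. Both day 7 libraries lay above both day 4 libraries for 6 of 7 members, all except LBH. The shares of all genes tested that did so, or that had an unadjusted p under 0.05, were not counted. With 2 libraries on each side such a separation is weak, and the tests called none of these differences. Of all called genes 33.3% were higher at day 7, against 14.2% after quantile normalization and 12.2% after median-ratio scaling.

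At 2D day 4 the knockdowns were also set against wild type, in which the 2D day 4 libraries were among those that chose the members, so that high wild-type values were favoured by the choice. In DENND5A-KD 3 of 7 members were lower and none was higher, beside 11.3% of genes tested called, 5.79% lower and 5.54% higher. VWA2 read 0.399 and 1.12 FPKM against 7.21 to 15.7 in wild type, a 16.1-fold lower mean (log2 difference -2.88 ± 0.34, adjusted p = 1.77e-05). PPP1R1B read 0.383 and 0.448 against 3.02 to 7.16, an 11.4-fold lower mean (-1.95 ± 0.37, adjusted p = 0.00155), and was not called with only these groups fitted (adjusted p = 0.0635). For these 2 genes the knockdown and wild-type libraries did not overlap, a separation that was not counted over all genes tested.

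SEPP1 was also lower in DENND5A-KD at 2D day 4, at 19.7 and 20.5 FPKM against 103 to 109.7, a 5.35-fold lower mean (-2.36 ± 0.60, adjusted p = 0.0138). Its call needed both knockdown lines, with an adjusted p of 0.126 without line 1 and 0.0599 without line 2. PODN read 32.0 and 74.9 against 105 to 121 (-1.18 ± 0.40, adjusted p = 0.0644). It was called after quantile normalization (adjusted p = 0.0441) and without line 2 (-1.79, adjusted p = 0.0193).

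Of the nuclear genes none was called, and their differences went in both directions. RIPPLY1 read 30.0 and 21.4 FPKM in DENND5A-KD against 4.03 to 7.22 in wild type, a 4.62-fold higher mean (2.04 ± 0.74, adjusted p = 0.0858). With the line number as a block within the knockdowns the adjusted p was 0.0240, and with only these groups fitted it was 0.0490. SAMD11 (0.51) and LBH (-0.37) were not called. At day 7 RIPPLY1 in DENND5A-KD, at 50.7 and 51.3, lay above the highest wild-type library of any group, which read 35.0.

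In AVL9-KD at 2D day 4, 3 of 7 members were lower than in wild type and none was higher, beside 21.0% of genes tested called, 2.34% lower and 18.7% higher. Here too the choice of the members favoured high wild-type values, so lower calls are not independent of that choice. LBH read 5.90 and 2.74 FPKM against 7.78 to 13.7 (-1.23 ± 0.37, adjusted p = 0.0224), SEPP1 10.3 and 90.9 against 103 to 109.7 (-1.75 ± 0.60, adjusted p = 0.0444), and VWA2 2.68 and 9.68 against 7.21 to 15.7 (-1.01 ± 0.34, adjusted p = 0.0406). The VWA2 libraries overlapped with wild type, and those of LBH and SEPP1 did not, without a count of such separation over all genes tested. These calls were fragile. Leaving out any 1 wild-type library took SEPP1 over the threshold (adjusted p = 0.0717 without replicate 1, 0.0751 without replicate 2 and 0.101 without replicate 3). VWA2 was lost without wild-type replicate 1 (0.115) or replicate 3 (0.138), and LBH without replicate 2 (0.0513) or replicate 3 (0.0933). PODN (-1.13 ± 0.40, adjusted p = 0.0517) lay just over the threshold, and was called with the line number as a fixed block (0.0425), with duplicateCorrelation (0.0449), after quantile normalization (0.0194) and after median-ratio scaling (0.0292). All genes together had a median difference of 0.19 in this comparison, with 88.9% of calls in the higher direction, against 53.1% after quantile normalization and 50.9% after median-ratio scaling.

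The 2 AVL9-KD lines differed from each other at day 4 in 6 of the 7 members by at least 2-fold on FPKM + 1, in each case with line 4 above line 1. Over all genes tested, 4.41% were that far apart 2.23% with line 4 above and 2.17% with line 1 above. RIPPLY1 read 54.4 FPKM in line 4 and 1.03 in line 1, a ratio of 52.7, and SEPP1 read 90.9 and 10.3, a ratio of 8.86. The ratio was 6.22 for PPP1R1B, 3.61 for VWA2, 2.70 for PODN and 2.46 for SAMD11. LBH went the other way, with line 1 reading 2.15 times line 4. These are 1 library per line, so the difference has no replicate check. Relative depth was 0.532 in line 4 and 1.64 in line 1 at day 4 and 1.66 and 0.732 at day 0, and TAGLN ranged from 5.36 to 14.4 FPKM over the day 4 lines; the part of either in the line difference was not tested. At day 0 all 7 genes read under 1.2 FPKM in both lines. The DENND5A-KD lines were at least 2-fold apart at day 4 in 1 of 7 members, PODN, beside 1.58% of genes tested.

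The AVL9-KD differences of several genes therefore depended on which library was kept, and a line cannot be told apart from its single library. Without line 1 the difference of AVL9-KD from wild type at 2D day 4 was 3.105 for RIPPLY1, and without line 4 it was -1.66. The fit with both lines gave 0.72 ± 0.74 (adjusted p = 0.510). Without line 1 the SEPP1 difference shrank to -0.24 and that of VWA2 to -0.25. The difference without line 4 was -0.79 for LBH, -1.83 for PODN, -1.13 for SAMD11 and -1.45 for PPP1R1B. A fit with 1 line assumes that it varies like the other groups.

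**Figure D4:**
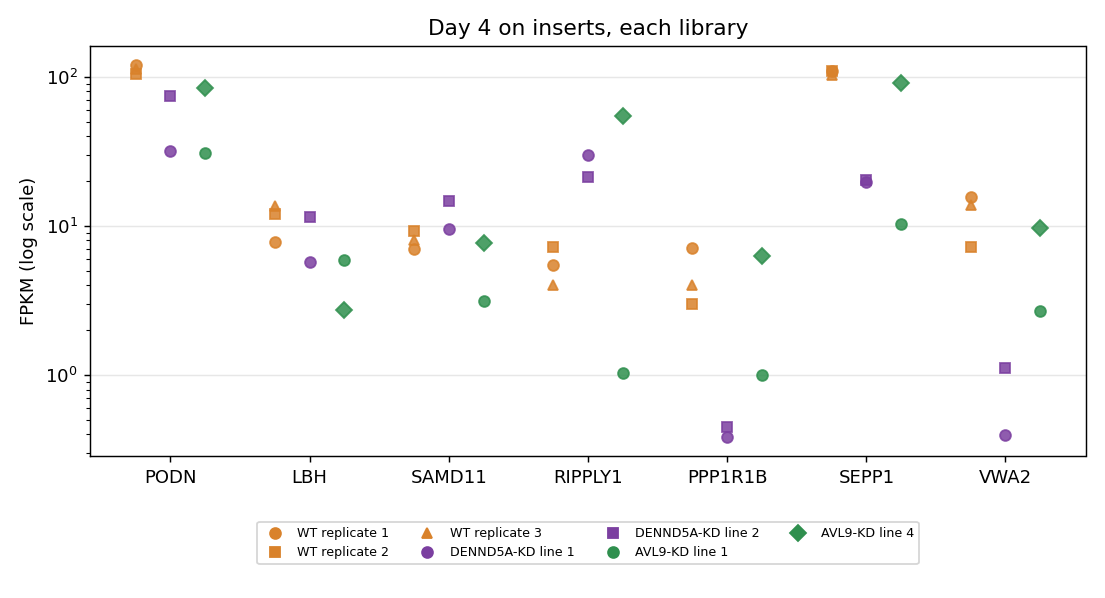
FPKM of the 7 genes at 2D day 4, on a log-scaled y axis, in the 3 wild-type libraries, the 2 DENND5A-KD lines and the 2 AVL9-KD lines, 1 point per library. AVL9-KD line 4 lies above line 1 for every gene except LBH, and both DENND5A-KD lines lie below all wild-type libraries for PPP1R1B, SEPP1 and VWA2 and above them for RIPPLY1.

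Set directly against each other at 2D day 4, DENND5A-KD was lower than AVL9-KD for VWA2 (-1.86 ± 0.37, adjusted p = 0.00233) and PPP1R1B (-1.43 ± 0.40, adjusted p = 0.0172) and higher for SAMD11 (1.11 ± 0.36, adjusted p = 0.0311). The 3 calls of 7 stand beside 22.4% of all genes tested, 3.28% higher and 19.1% lower. For each of the 3 genes the lines of the 2 knockdowns did not overlap, but the share of all genes tested with such a separation was not counted. None of the 3 was called with only these groups fitted (adjusted p of 0.196, 0.267 and 0.234). Without DENND5A-KD line 1 none of the 3 was called (0.0683 for VWA2, 0.136 for PPP1R1B and 0.0847 for SAMD11). SAMD11 was also lost without DENND5A-KD line 2 (0.168) or AVL9-KD line 1 (0.317), and PPP1R1B without AVL9-KD line 4 (0.333). RIPPLY1, 1.32 in favour of DENND5A-KD with both lines, was -1.07 (adjusted p = 0.0464) without AVL9-KD line 1 and 3.70 without line 4. SEPP1 was lower in DENND5A-KD without AVL9-KD line 1 (-2.12, adjusted p = 0.0171). All genes together had a median difference of -0.24, with 14.6% of calls in the higher direction, against 51.1% after quantile normalization and 58.5% after median-ratio scaling.

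At day 0, before any growth on inserts, the members read at most 1.16 FPKM in both knockdowns, and the wild-type day 0 libraries were also used in choosing them. In AVL9-KD 1 of 7 members was called, SEPP1, which was listed at 0 in line 1 and read 0.0908 FPKM in line 4 against 0.680 to 7.05 in wild type (-1.89 ± 0.57, adjusted p = 0.0278; 18.0% of genes tested called, 4.59% lower). That call was lost without wild-type replicate 2 (adjusted p = 0.0718) or 4 (0.0792), without AVL9-KD line 1 (0.157) or 4 (0.0928), and with only these groups fitted (0.141). PODN, at 0.0618 and 0.0455 against 0.210 to 3.14, was called without wild-type replicate 1 (-1.20, adjusted p = 0.0254). Of all genes called in AVL9-KD at day 0, 74.5% were higher, against 48.5% after quantile normalization and 49.1% after median-ratio scaling, and the median of all genes was 0.11.

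In DENND5A-KD at day 0 limma called no member (5.52% of genes tested, 3.27% higher and 2.25% lower), and 1 had an unadjusted p under 0.05. That was SEPP1, at 0.221 and 0.0600 FPKM against 0.680 to 7.05 (-1.77 ± 0.57, adjusted p = 0.0845). It was called with the line number as a block (0.0417), without the 5 libraries that stood apart (0.0382), with a term for those libraries (0.0445) and without wild-type replicate 1 (0.0204). TAGLN read 4.56 and 5.24 FPKM in these libraries and 0.303 and 3.08 in AVL9-KD at day 0, against 0.436 to 0.971 in wild type, and its part was not tested. In both knockdowns every day 0 library of SEPP1 and PPP1R1B lay below every wild-type day 0 library, which the choice of the members had used. The share of all genes tested with such a separation was not counted. PPP1R1B read at most 0.569 FPKM in these libraries, and limma did not call it in DENND5A-KD (-0.43, adjusted p = 0.688) or AVL9-KD (-0.44, adjusted p = 0.420).

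Other genes of the same pathways, listed by function, were counted in the same tests of 2D day 4 against day 0. Over all genes tested, 20.1% were called higher and 22.2% lower in DENND5A-KD and 31.1% higher and 22.8% lower in AVL9-KD, which is the background of the list counts. Among small leucine-rich and other proteoglycans, 4 of 10 tested genes rose and 1 fell in DENND5A-KD, and 5 rose and 1 fell in AVL9-KD. The 4 that rose in DENND5A-KD were not leucine-rich like PODN. Of the leucine-rich genes, BGN (0.09), ECM2 (0.41) and TSKU (0.25) were not called there. In AVL9-KD ECM2 was called higher (0.50 ± 0.20), and BGN (0.25) and TSKU (-0.39) were not called. AGRN, a basement membrane proteoglycan, rose by 1.38 ± 0.21 and 1.75 ± 0.21, and SDC1, a cell surface proteoglycan, fell (-0.74 ± 0.18 and -1.19 ± 0.18). PODNL1, the closest relative of PODN, was listed at 0 in all libraries. The list's median was 0.55 in DENND5A-KD and 0.64 in AVL9-KD, beside -0.01 and 0.09 over all genes.

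The next list held the Fraser complex, matrix proteins with VWA domains, and other basement membrane and integrin genes. Of its 14 tested genes, 5 rose and 3 fell in DENND5A-KD and 7 rose and 2 fell in AVL9-KD, with medians of 0.12 and 0.47. COL18A1, a basement membrane collagen, rose by 4.68 ± 0.44 and 5.69 ± 0.44, and VWA1, a relative of VWA2, rose by 1.07 ± 0.28 and 1.87 ± 0.28. ITGA3, a laminin receptor subunit, fell in both (-1.03 ± 0.20 and -0.68 ± 0.20). Of 22 tested selenium pathway genes, 4 rose and 7 fell in DENND5A-KD and 6 rose and 9 fell in AVL9-KD, with medians of -0.01 in both. SEPN1, a selenoprotein of the endoplasmic reticulum, rose by 1.17 ± 0.19 and 1.75 ± 0.19, and TXNRD1, a thioredoxin reductase, fell (-1.56 ± 0.25 and -2.10 ± 0.25). LRP2, which encodes megalin, was listed at 0 in every library.

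Of 24 tested protein phosphatase 1 subunits and inhibitors, 8 rose and 3 fell in DENND5A-KD and 9 rose and 2 fell in AVL9-KD, with medians of 0.05 and 0.22. PPP1R3C, which targets the phosphatase to glycogen, rose by 2.54 ± 0.34 in both knockdowns, PPP1R15A, which directs it to a translation factor under stress, rose by 0.91 ± 0.25 in DENND5A-KD and 2.61 ± 0.25 in AVL9-KD, and PPP1CC, a catalytic subunit, fell in both (-0.63 ± 0.14 and -0.60 ± 0.14). PPP1R1A, the nearest relative of PPP1R1B, read at most 0.0431 FPKM.

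Of 8 tested T-box factors and TLE corepressors, 4 rose and 2 fell in each knockdown, with medians of 0.34 and 0.54. The corepressor TLE3 rose by 1.59 ± 0.19 in DENND5A-KD and 1.22 ± 0.19 in AVL9-KD, and the T-box repressor TBX2 fell in both (-1.31 ± 0.19 and -0.46 ± 0.19). RIPPLY2 was listed at 0 throughout, and RIPPLY3 read 0.177 to 2.37 FPKM. Of 23 tested Polycomb repressive complex 1 genes, 7 rose and 2 fell in DENND5A-KD and 12 rose and 2 fell in AVL9-KD, with medians of 0.21 and 0.43. PHC1, a SAM domain subunit of that complex, rose by 1.09 ± 0.14 and 1.40 ± 0.14, and SAMD7, the photoreceptor relative of SAMD11, was listed at 0 in all libraries. Of 8 tested Wnt targets and feedback genes, 4 rose and 3 fell in DENND5A-KD and 4 rose and 2 fell in AVL9-KD, with medians of 0.37 and 0.55. AXIN2, a feedback inhibitor of Wnt signalling, rose by 1.54 ± 0.19 and 1.56 ± 0.19, and CCND1, a cyclin, fell (-2.01 ± 0.24 and -1.68 ± 0.24). In all of these lists genes moved in both directions.

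Across the 13 group means of log2(FPKM + 1) the members resembled each other to different degrees, as a description over groups that share cells, depth and scaling. Pearson's r was highest for LBH with SAMD11 (0.947), SAMD11 with RIPPLY1 (0.920), PODN with SEPP1 (0.907) and LBH with PPP1R1B (0.901), and lowest for RIPPLY1 with VWA2 (0.375). Among 1361 genes with a range of at least 2 log2 over the groups, PODN was most like VPS37D (0.991), ADAMTS1 (0.987) and CFI (0.986), SEPP1 most like CYP27A1 (0.992), USH1C (0.991) and DDO (0.990), and VWA2 most like MAN1C1 (0.972), SRD5A1 (0.953) and EFEMP1 (0.949). Of the gel-higher genes, LBH was most like IFT27 (0.974), SPA17 (0.965) and CETN2 (0.963), SAMD11 most like RLBP1 (0.975), CTNNB1 (0.974) and TEX26 (0.968), PPP1R1B most like PDZD3 (0.967), BTN1A1 (0.965) and TMEM17 (0.957), and RIPPLY1 most like PPP1R3C (0.933), AGR2 (0.929) and HABP2 (0.925). RIPPLY1 thus had the least close matches.

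In gene order on the RefSeq assembly UU_Cfam_GSD_1.0, PODN and SAMD11 lie near each other with 3 protein-coding genes between them. RIPPLY1 lies between TBC1D8B, at 1.54 to 2.02 FPKM at day 0 and 1.89 to 1.91 at 3D day 8, and CLDN2, a claudin of leaky epithelia, which read 6.54 to 22.4 FPKM at day 0, 92.6 to 143 at 3D day 8 and 74.0 to 106 at 2D day 4. PODN lies next to SCP2, a lipid carrier of peroxisomes, which read 14.1 to 19.0 at day 0, 66.1 to 73.4 at 3D day 8 and 63.0 to 70.1 at 2D day 4. The neighbours of LBH differed in direction, with YPEL5 at 5.53 to 9.30 at day 0 and 34.9 to 36.9 at 3D day 8, and LCLAT1 at 11.2 to 12.5 and 5.04 to 7.73. NOC2L beside SAMD11 read lower on gel, from 21.7 to 26.3 at day 0 to 7.28 to 7.69 at 3D day 8, and the direct neighbours of SEPP1, VWA2 and PPP1R1B read at most 8.21 in these 3 groups.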

How the data were processed

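The authors deposited FPKM values, 1 file per library. The submitters' processing notes list HISAT2 2.1.0 and Cufflinks 2.2.1 beside canFam3 and CanFam3.1 as dog builds, without roles. No read counts were used, so absolute depth is unknown, and relative depth was read from steps between FPKM values under 0.15. The members and gene lists were chosen with earlier results of these data known.

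Values as log2(FPKM + 1) entered limma (version 3.58.1, trended variance, under R 4.3.3) with 29 libraries and a mean for each of 13 groups. Contrasts were 2-sided, Benjamini-Hochberg adjusted over 11774 genes that reached 1 FPKM in 2 or more libraries, and called at an adjusted p under 0.05. The comparisons with wild type at one time share its libraries. Named genes were the 7 members, DENND5A and AVL9, the 3 most alike genes per member, up to 3 genes per list by smallest adjusted p, and close relatives of members at or near 0. TIMM13, RPS27L, TAGLN, BGN, ECM2, TSKU and the genomic neighbours were named outside that rule. The lists counted 8 to 24 tested genes each. Gene order came from RefSeq (UU_Cfam_GSD_1.0), without coordinates, since the build differs. Line numbers pair knockdown libraries by their labels, and deviations of same-numbered libraries from their group means correlated with r of 0.0101 to 0.0966 in DENND5A-KD and 0.358 in AVL9-KD. Wild-type day 0, 2D day 4 and 2D day 11 libraries of one number correlated with r of -0.0203 to 0.558. Blocks joined libraries within a genotype and never a knockdown line to a wild-type replicate: the fixed term covered the knockdown lines, and duplicateCorrelation also the wild-type numbers. The pipeline was tested on simulated data. Python 3.11.15 with pandas 2.3.3 drew the values together.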

Additional observations from a re-analysis of the deposited data

How the results depend on the processing

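Settings changed in turn were the pseudocount (0.1), the scaling (by quantiles or by median ratio), the filter (none), the line number as a replicate block (fixed term or duplicateCorrelation), fitting only the groups compared, and leaving out each library, the 5 libraries that stood apart or their effect by a term. Of the tested values of single members under these settings, 698 kept direction and side of the threshold, 43 lost the call, 27 gained it and 2 changed sign; of the described values 547 moved by less than the spread between replicates and 146 by more. Causes were not tested. The sign changes were both RIPPLY1 with 1 AVL9-KD line left out at 2D day 4: DENND5A-KD against AVL9-KD gave -1.07 without line 1 and 3.70 without line 4, and AVL9-KD against wild type gave 3.105 without line 1 and -1.66 without line 4.

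The members called higher at 2D day 4 over day 0 stayed 5 in DENND5A-KD in every setting that left out a library, and 7 in AVL9-KD, where fitting only the groups compared gave 4. With the replicate block as a fixed term, members lower in DENND5A-KD than wild type at day 0 went from 0 to 1, and members higher at 2D day 4 from 0 to 1. With duplicateCorrelation (consensus 0.201) genes called for DENND5A-KD day 7 against day 4 went from 6 to 76. The block changed no other count of members or count of all genes by over 1.5 times.

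With only the groups compared fitted, members higher in DENND5A-KD than wild type at 2D day 4 became 1, DENND5A-KD against AVL9-KD gave 0 higher and 0 lower, AVL9-KD against wild type gave 0 lower at day 0 and 0 at day 4. All genes called then numbered 3502 for AVL9-KD day 4 against day 0 (6346 before), 0 for DENND5A-KD against AVL9-KD (2640), 400 for DENND5A-KD against wild type at day 0 (650) and 97 at day 4 (1334), and 342 (2118) and 25 (2474) for AVL9-KD. Quantile normalization gave 127 genes for DENND5A-KD day 7 against day 4 and 2069 for DENND5A-KD against wild type at day 4. Median-ratio scaling gave 90 for the former and 1548 for DENND5A-KD against AVL9-KD.

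A pseudocount of 0.1 gave 0 genes for DENND5A-KD day 7 against day 4, 0 members higher in DENND5A-KD than AVL9-KD, 1 lower in DENND5A-KD and 3 in AVL9-KD at day 0, 0 lower in AVL9-KD at day 4, and 3 at least 2-fold higher at 24 h on gel. Without a filter these were 21 genes, 0 members higher than AVL9-KD, and 1 lower in AVL9-KD at day 4. Without the 5 libraries, 1 member was lower in DENND5A-KD and 2 in AVL9-KD at day 0, 1 was lower in AVL9-KD at day 4, and 0 were 2-fold higher at 24 h. A term for those libraries gave 23 genes for day 7 against day 4 and 1 member lower in DENND5A-KD at day 0.

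Leaving out single libraries gave 0 to 213 genes for DENND5A-KD day 7 against day 4, 3315 to 4187 for its day 4 against day 0 (4983 with all), 349 to 2748 for DENND5A-KD against AVL9-KD, 207 to 641 and 416 to 1217 for DENND5A-KD against wild type at day 0 and day 4, and 745 to 2572 and 1184 to 2493 for AVL9-KD. Members higher in DENND5A-KD than AVL9-KD numbered 0 to 2 and lower 0 to 4. Members lower than wild type at day 0 numbered 0 to 1 in DENND5A-KD and 0 to 2 in AVL9-KD, those lower in AVL9-KD at day 4 0 to 6 and higher 0 to 1, and those 2-fold higher at 24 h 0 to 1. Some of these fits leave 1 knockdown library in a group, which then has no spread of its own. The counts on gel against insert stayed at 4 and 2. Levels under about 1 FPKM, as at day 0, limit every fold change given here.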
